A study of Mus musculus with 7 samples.

Results

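Cycling cells are cells caught while copying their DNA or dividing. Here they were selected on measured values: a cell counted as cycling when it held at least 1000 UMIs (unique molecular identifiers, each standing for 1 captured RNA molecule) and at least 1 UMI of 2 or more of the 5 genes Mki67, Top2a, Cdk1, Cenpf and Ccnb1. By this rule 385 of 1033 cells with 1000 or more UMIs were cycling, out of 1140 barcodes in 7 libraries. The levels of the 5 markers in these cells follow from the rule and are given as a description only.

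A dividing cell passes from G1 into S phase, when cyclin E and cyclin A kinases fire replication origins loaded with MCM helicases, and then through G2 into mitosis, which cyclin B and Cdk1 start and the anaphase-promoting complex ends. Genes of S phase are driven mainly by E2F factors, and genes of G2 and mitosis by the DREAM and MuvB complexes with NF-Y, B-Myb and FoxM1. Oligodendrocyte progenitor cells (OPCs) are among the few cells of the brain that keep dividing after birth, and they leave the cycle as they differentiate into myelin-forming oligodendrocytes.

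The study set 4 kinds of converted cells beside their sources and beside the cells they were meant to resemble, all from C57BL/6 mice. The sources were untreated mouse embryonic fibroblasts (MEF) from the embryo and untreated primary cerebral pericytes (PC) from the brain. Each was transduced with viruses carrying Olig2 and Sox10 (2 factors, MEF-2F and PC-2F) or Olig2, Sox10 and Nkx6.2 (3 factors, MEF-3F and PC-3F), and untreated primary OPCs (pOPC) from the brain were the reference. Induced and primary progenitors were kept in OPC medium, fibroblasts and pericytes each in a medium of their own, so medium and conversion cannot be told apart. Each condition was 1 library, with no animal or culture number, age or time after transduction in the labels, and the labels name no promoter for the viruses.

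The 7 libraries held 230125 to 1294434 UMIs over 17784 genes, and 75 to 267 cells with 1000 or more UMIs. No barcode occurred in more than 1 library, and doublets were not called. Cycling cells were deeper than other cells in all 7 libraries, with medians of 4142 to 6660 against 1868 to 5694 UMIs, and they also held more genes. With 1 library per condition there is no replicate: the 95% intervals below are exact and hold counting error alone, and levels are CPM, UMIs scaled to the same total in each class of cells. Olig1, an OPC factor, was detected in all 99 cycling and all 17 other pOPC cells. Of the pericyte genes, Pdgfrb was detected in 62.0% of cycling and 54.1% of other PC cells, but Rgs5 had no UMI in the PC library. Nkx6-2, the third factor, had 0 UMIs in cycling cells of MEF-3F and of PC-3F, and 1 and 2 UMIs in their other cells.

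The start sites of the 5 markers carry the short elements known from genes of late S phase to mitosis, and they are shown for that reason. The sequences are from RefSeq (GRCm38.p6), 5′ to 3′ on the strand of the gene, from 150 bases before the start and only as far as no annotated gene begins. Capitals mark CCAAT (or ATTGG, its complement), bound by NF-Y, and TTTGAA (or TTCAAA), the core of the cell cycle genes homology region. These windows lie at chr7:135716380-135716529 (Mki67), chr11:99024190-99024339 (Top2a), chr10:69352939-69353062 (Cdk1), chr1:189688087-189688236 (Cenpf), chr13:100786571-100786636 (Ccnb1) and chr5:34187721-34187860 (Mxd4), all upstream of genes on the minus strand.
Mki67: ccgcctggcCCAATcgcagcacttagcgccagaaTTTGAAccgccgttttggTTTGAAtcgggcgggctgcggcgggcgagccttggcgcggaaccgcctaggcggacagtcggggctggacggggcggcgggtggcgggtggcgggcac
Top2a: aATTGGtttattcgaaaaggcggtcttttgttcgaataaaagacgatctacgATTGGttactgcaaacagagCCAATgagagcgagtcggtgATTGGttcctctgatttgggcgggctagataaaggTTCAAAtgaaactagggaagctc
Cdk1: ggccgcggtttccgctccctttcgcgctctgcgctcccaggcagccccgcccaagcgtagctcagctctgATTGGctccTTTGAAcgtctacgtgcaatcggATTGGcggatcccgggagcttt
Cenpf: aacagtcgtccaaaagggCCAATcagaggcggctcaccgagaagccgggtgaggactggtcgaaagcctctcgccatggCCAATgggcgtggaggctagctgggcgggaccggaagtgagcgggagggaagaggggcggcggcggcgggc
Ccnb1: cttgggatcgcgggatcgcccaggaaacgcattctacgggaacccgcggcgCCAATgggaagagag
Mxd4: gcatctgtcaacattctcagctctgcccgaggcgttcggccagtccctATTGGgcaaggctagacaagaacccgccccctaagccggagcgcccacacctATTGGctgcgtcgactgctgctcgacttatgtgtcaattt

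All 5 marker windows hold CCAAT on 1 of the strands, and Top2a has 4 copies. TTTGAA stands in the windows of Mki67, with 2 copies, and of Top2a and Cdk1, with 1 each. Mxd4, a Myc antagonist whose level was lower in cycling cells (below), has 2 CCAAT and no TTTGAA. Over the 150 bases before the start, 27.7% of 27025 genes had CCAAT, 10.5% had TTTGAA and 3.13% had both, with both strands searched. Of the 46 genes of the G2/M list used below, 41 had a window, of which 30 (73.2%) held CCAAT, 12 (29.3%) TTTGAA and 11 (26.8%) both. On the S phase list used below, 17 of 31 windows (54.8%) held CCAAT, 9.68% TTTGAA and 3.23% both. Among the genes tested for differences below, these shares were 33.7%, 6.40% and 3.29%. These matches describe letters in a window and say nothing about binding.

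The share of cycling cells was highest in the primary OPCs. Because deeper cells show more markers, each cell was thinned at random to 1000 UMIs before the shares were compared. After thinning, 50 of 116 pOPC cells (43.1%, interval 33.9 to 52.6) were cycling. The cells of pericyte origin came next, with 15.7% (11.6 to 20.7) of 267 PC cells, 18.5% (13.1 to 25) of 178 PC-2F cells and 17.1% (11.4 to 24.2) of 146 PC-3F cells. Cells of fibroblast origin were lowest, with 8.53% (4.33 to 14.8) of 129 MEF cells, 6.67% (2.20 to 14.9) of 75 MEF-2F cells and 4.92% (1.83 to 10.4) of 122 MEF-3F cells. The pOPC interval lay above those of the 6 other libraries. These shares come from 1 random draw of UMIs, and the intervals do not cover the error of that draw. The share expected over such draws was 51.7% for pOPC, 6.27% for MEF and 4.1 to 18.6% elsewhere. Each expected share lay inside the interval given for its library, and pOPC stayed highest. Within each origin, the intervals of source and converted cells overlapped, so no difference between them was detectable at this depth.

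**Figure D1:**
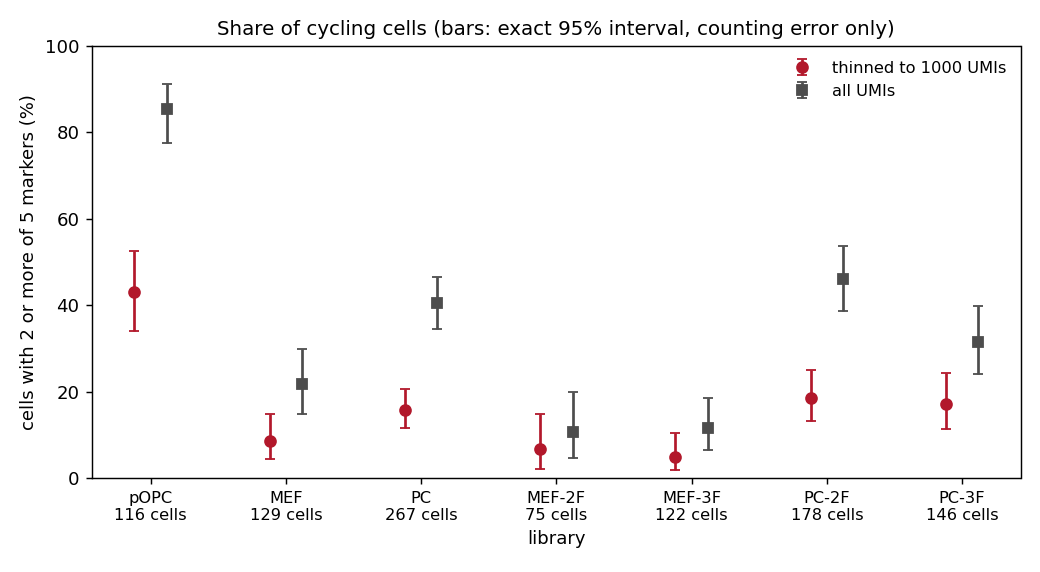
Share of cells with UMIs of 2 or more of the 5 markers (vertical axis, percent) in each library (horizontal axis, with its number of cells), for cells thinned to 1000 UMIs (red circles) and for all UMIs (grey squares). Bars are exact 95% intervals; the pOPC library is highest on either measure, at 43.1% and 85.3%.

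Over all UMIs, the cycling share was 85.3% in pOPC, 31.5% in PC-3F, 46.1% in PC-2F, 40.4% in PC, 11.5% in MEF-3F, 10.7% in MEF-2F and 21.7% in MEF. These are the cells described from here on: 99 in pOPC, 46 in PC-3F, 82 in PC-2F, 108 in PC, 14 in MEF-3F, 8 in MEF-2F and 28 in MEF. Thinned or not, PC-2F was above PC, with intervals that overlapped. PC-3F was above PC after thinning (17.1 against 15.7%) but below it over all UMIs (31.5 against 40.4%). MEF-3F was below MEF-2F after thinning (4.92 against 6.67%) but above it over all UMIs (11.5 against 10.7%). The intervals of these pairs overlapped as well. Some files join 2 blocks of barcodes. In MEF-3F all 14 cycling cells were in the second block, of 95 cells, and 0 of 27 cells in the first were cycling, which allows a share of up to 11.1% by 3 counts and 12.8% by the exact interval. In PC, 14 of 36 and 94 of 231 cells of the blocks were cycling, and in MEF-2F, 5 of 60 and 3 of 15. With other markers, at least 2 of the 4 genes Birc5, Nusap1, Tpx2 and Aurkb (Ube2c is not in these files), pOPC again had the highest thinned share, 25%, and no MEF-2F cell passed.

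The 5 markers encode a nuclear protein of proliferating cells (Mki67), the topoisomerase that untangles chromosomes (Top2a), the mitotic kinase (Cdk1), a kinetochore protein (Cenpf) and cyclin B1 (Ccnb1). Top2a had a UMI in 89.9% of cycling pOPC cells, 97.8% in PC-3F, 91.5% in PC-2F, 81.5% in PC, 42.9% in MEF-3F, 100% in MEF-2F and 85.7% in MEF, against 3.70 to 29.4% of other cells. Its level in cycling cells was 1050 CPM in pOPC, 1144 in PC-3F, 862 in PC-2F, 507 in PC, 436 in MEF-3F, 771 in MEF-2F and 475 in MEF. Ccnb1 was detected in 85.7% of cycling MEF-3F cells but in 12.5% of those of MEF-2F, 1 cell of 8. Mki67 ranged from 144 CPM in cycling PC cells to 396 in those of pOPC.

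All 5 markers were seen together in 41 of 99 cycling pOPC cells, 17 of 108 in PC, 19 of 82 in PC-2F, 13 of 46 in PC-3F, 5 of 28 in MEF, and in 1 cell each of MEF-2F and MEF-3F. Just inside the threshold, cells with exactly 2 markers had 2362 (MEF) to 5140 (pOPC) CPM of the G2/M list. Just outside it, cells with 1 marker had 702 (MEF-3F) to 3633 (pOPC) CPM of that list, and cells with 0 markers 426 (MEF-2F) to 3576 (pOPC) CPM. The 6 pOPC cells with 0 markers also held 6154 CPM of the S phase list, against 330 to 2827 CPM in such cells of the 6 other libraries. The 17 other cells of pOPC were shallow, with a median of 1868 UMIs, so a cell without markers there was not shown to be outside the cycle.

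Genes of the cycle that the rule did not use were higher in cycling cells of all 7 libraries. The G2/M list (46 genes such as Plk1, Aurkb and Kif11) was 2.91-fold higher in pOPC (2.5 to 3.41), 5.43-fold in MEF (4.89 to 6.03), 3.07-fold in PC (2.89 to 3.25), 15.1-fold in MEF-2F (11.7 to 19.4), 11.8-fold in MEF-3F (10.2 to 13.9), 6.34-fold in PC-2F (5.83 to 6.90) and 7.91-fold in PC-3F (7.10 to 8.83). The list's level ran from 5068 CPM in MEF to 10542 in pOPC in cycling cells, and from 467 CPM in MEF-2F to 3618 in pOPC in other cells.

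The S phase list (40 genes such as Pcna, Rrm2 and the Mcm helicases) separated the classes less. It was 1.16-fold higher in pOPC (1.01 to 1.32), where other cells already held 5057 CPM, and 1.52-fold higher in PC (1.44 to 1.61). The ratios were 3.92 in PC-3F, 2.70 in PC-2F, 4.02 in MEF-3F, 9.46 in MEF-2F and 4.23 in MEF. After thinning to 1000 UMIs, the median cycling cell held 6 UMIs of the S list and 10 of the G2/M list in pOPC, 4 and 6.5 in PC-2F, and 1.5 and 8 in MEF-3F. In MEF-3F, 57.1% of cycling cells thus had any UMI of the S list, against 100% with one of the G2/M list; in other cells of that library the shares were 31.5% and 40.7%.

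**Figure D2:**
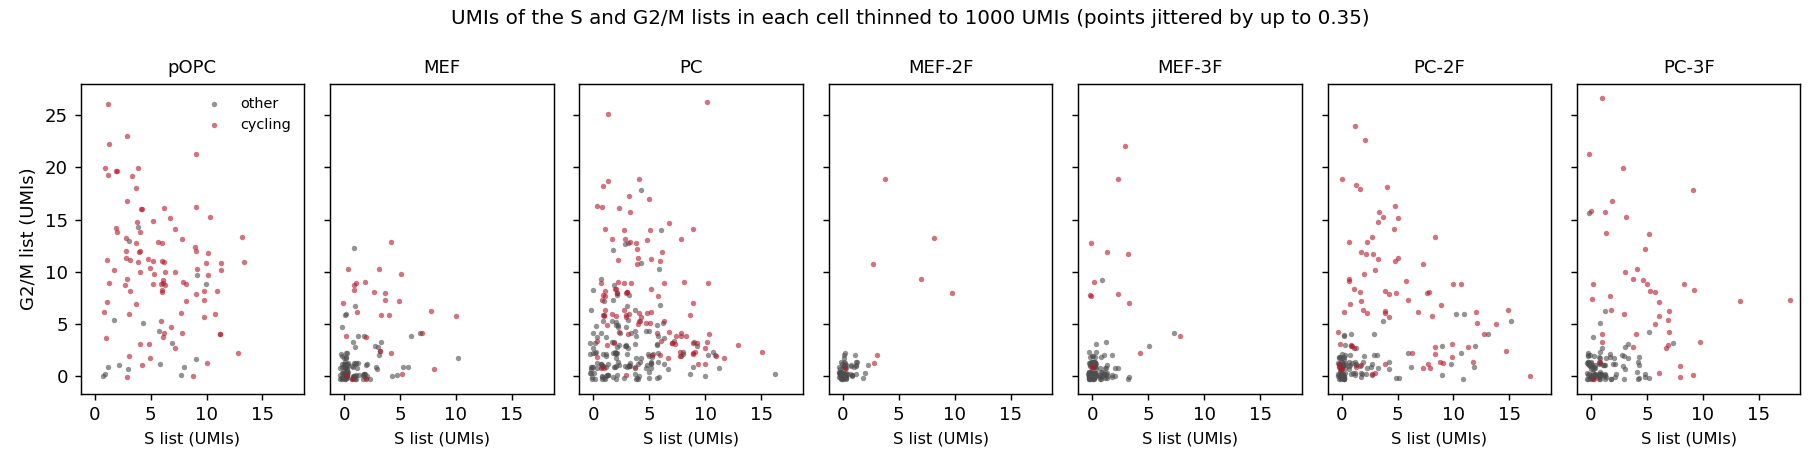
UMIs of the S list (horizontal axis) and of the G2/M list (vertical axis) in each cell thinned to 1000 UMIs, 1 panel per library, cycling cells in red and other cells in grey. Other cells gather near 0 in the libraries of MEF, MEF-2F and MEF-3F, but spread over the S axis in PC (median 3 UMIs) and pOPC (median 4 UMIs).

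The libraries were then treated as 7 paired samples, each giving the summed level of its cycling and its other cells, and 4582 genes with a mean of at least 50 CPM were tested with limma on log2(CPM + 25) with the library as a block. At an adjusted p under 0.05, 145 genes (3.16% of those tested) were higher in cycling cells and 9 (0.196%) were lower, while the median of all genes tested was 0.00. Of the 145, 5 were the markers themselves, 45 others were in the cycle lists and 95 were in none of them. Since a fold is on the log2(CPM + 25) scale, it understates the change of genes with low levels. With cells thinned to 1000 UMIs, called and summed again, 37 genes were higher, 35 of them among the 145.

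All 31 tested genes of the 46 on the G2/M list rose, by a median log2 difference of 1.99, against 0.00 over all genes. The filter on mean CPM runs over both classes, so a gene near 0 in other cells could pass through cycling cells alone. The cells were also selected by genes active in the same phases. The rise of this list and of the other cycle genes below thus describes the selected cells and is no independent test. Kif11, the kinesin that pushes spindle poles apart, rose by 2.67 ± 0.21 (SE, 7 libraries, adjusted p = 2.0e-06). Tpx2, which activates Aurora A on the spindle, rose by 2.64 ± 0.24 (adjusted p = 6.1e-06), and Birc5, the survivin subunit of the chromosomal passenger complex, by 2.56 ± 0.20 (adjusted p = 2.0e-06). Anln and Prc1, which build the cleavage furrow and the central spindle, rose by 2.49 ± 0.24 and 2.49 ± 0.26. Each of these 5 was higher in 7 of 7 libraries.

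Of 21 tested genes of the S phase list, 12 rose, with a median of 1.0. Ccna2, cyclin A2, was first at 2.70 ± 0.22 (adjusted p = 2.2e-06). Rrm1 (1.57) and Rrm2 (1.97), the subunits of ribonucleotide reductase, Tk1 (2.12), thymidine kinase, and Pcna (1.14), the replication clamp, also rose. Of the helicase subunits, Mcm2 (0.92, adjusted p = 0.038) and Mcm3 (0.91, adjusted p = 0.0497) passed narrowly.

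Outside the cycle lists, the genes that rose most were Pbk, a mitotic kinase (2.44 ± 0.24, adjusted p = 1.0e-05), Fam64a (2.27), the histone variant gene H2afx (2.17), Arhgap11a (2.15), the condensin subunits Smc2 (2.12) and Ncaph (1.86), Iqgap3 (2.07) and Incenp (1.90), the scaffold of the passenger complex. All 8 were higher in 7 of 7 libraries. Pbk, for example, stood at 392 against 106 CPM in pOPC, 286 against 7.71 in PC-3F, 190 against 22.1 in PC-2F, 202 against 55.1 in PC, 198 against 16.9 in MEF-3F and 158 against 5.23 in MEF. It had 8 UMIs in cycling MEF-2F cells and 0 in other cells, at least 15.9-fold higher against a floor of 3 UMIs. With thinned cells, Pbk, Fam64a, Iqgap3 and Ncaph no longer passed, with the same direction.

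Among chromatin genes, 7 of 13 tested rose and none fell: H2afx, the variants H2afz (1.12) and H2afv (0.81), the Polycomb methyltransferase Ezh2 (1.04, adjusted p = 0.0040), the chromatin proteins Hmgn2 (0.99) and Cbx5 (0.74) and the histone chaperone Asf1b (1.27). Ezh2 stood at 217 against 169 CPM in pOPC, 151 against 41.1 in PC-3F, 154 against 57.7 in PC-2F, 160 against 45.7 in PC, 251 against 73.3 in MEF-3F, 61.7 against 41.5 in MEF-2F and 97.8 against 29.7 in MEF. Lmnb1, the lamin that is lost in senescent cells, was the 1 gene of 12 tested on the p53 and senescence list to rise (1.47, adjusted p = 8.0e-04).

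The list of D-type cyclins, kinases and brakes had 2 of 14 tested genes higher, and both were inhibitors of Cdk4 and Cdk6: Cdkn2c (1.58 ± 0.17, adjusted p = 3.5e-05) and Cdkn2d (1.47, adjusted p = 5.5e-04). Cdkn2c stood at 305 against 106 CPM in pOPC, 306 against 59.1 in PC-3F, 182 against 35.7 in PC-2F, 81.4 against 33.1 in PC, 264 against 78.9 in MEF-3F, 432 against 114 in MEF-2F and 88.5 against 5.23 in MEF. Ccnd1 and Ccnd2, the cyclins that carry growth signals into G1, did not pass: the ratio of cycling over other cells for Ccnd1 ran from 0.625 in MEF-3F to 2.16 in MEF-2F, and for Ccnd2 from 0.620 in PC-2F to 1.4 in MEF-3F. The brake Cdkn1a, a p53 target, was 2.85-fold higher in cycling PC-3F cells (425 against 149 CPM, ratio interval 2.05 to 4.0), while its ratio was 0.708 in MEF (0.601 to 0.830). Cdkn1c had 0 UMIs in cycling and 60 in other MEF-3F cells, at least 4.27-fold lower.

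**Figure D3:**
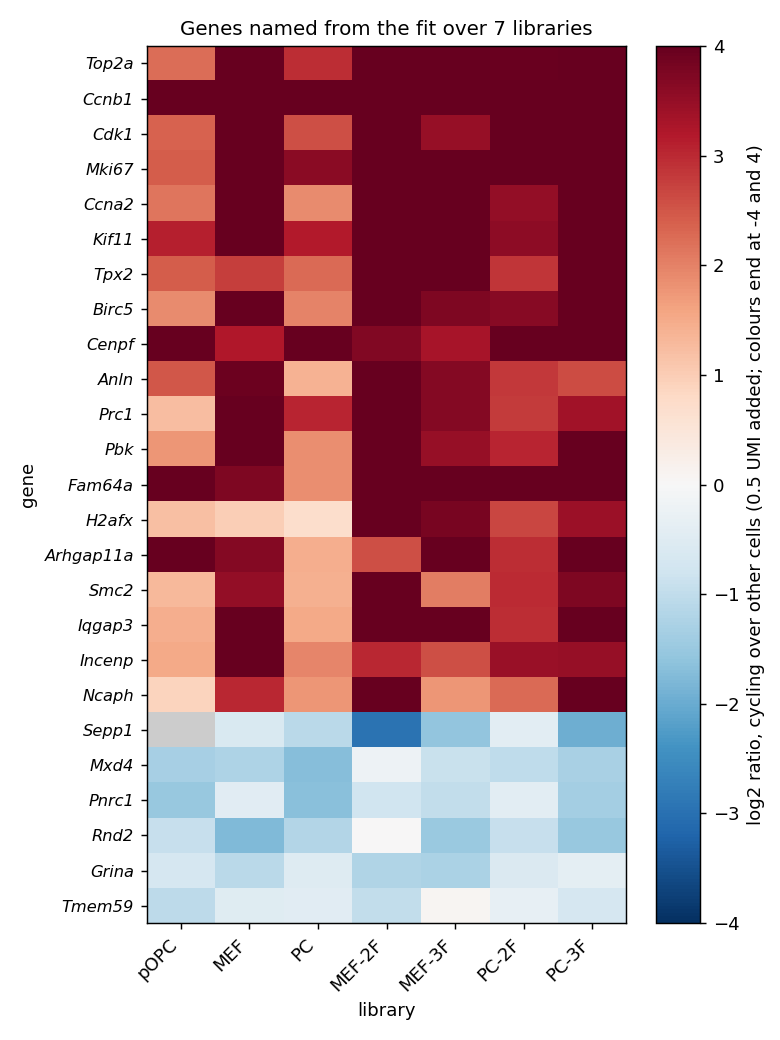
Log2 ratio of cycling over other cells (colour, with 0.5 UMI added to each class, cut off at -4 and 4) for the genes named from the fit (rows) in the 7 libraries (columns). The 19 upper genes are red in every library; the 6 lower genes are mostly blue, and the grey cell is a gene with 0 UMIs in both classes.

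The 9 genes that were lower were few and less stable. Among them were Sepp1 (-1.09 ± 0.27, adjusted p = 0.035), Mxd4 (-0.93 ± 0.15, adjusted p = 0.0012), Pnrc1 (-0.80 ± 0.16, adjusted p = 0.0067), Rnd2 (-0.75), Grina (-0.69), Tmem59 (-0.53), the ribosomal protein gene Rps14 and Gm26924. Mxd4 encodes a Max partner that opposes Myc, and it was lower in 7 of 7 libraries: 78.8 against 190 CPM in pOPC, 98.0 against 247 in PC-3F, 135 against 275 in PC-2F, 29.7 against 97.7 in PC, 198 against 375 in MEF-3F, 247 against 301 in MEF-2F and 121 against 290 in MEF. Sepp1, the selenium carrier selenoprotein P, was lower in the 6 libraries that expressed it, from 0.0874 of the level of other cells in MEF-2F (1 against 68 UMIs) to 0.744 in PC-2F.

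Depth moved with these calls. With thinned cells 12 genes were lower, none of them among the 9, and with cells of 3 or more markers as the cycling class 3 were lower. Leaving out a library gave 15 lower genes without pOPC, 5 without MEF, 19 without MEF-2F, 5 without MEF-3F, 6 without PC-2F and 3 without PC-3F. Mxd4 and Pnrc1 passed without any 1 library; Sepp1, Rnd2, Grina and Tmem59 each failed without at least 4 of the 7.

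No tested gene of cell identity was called over the libraries. Of 94 tested genes on the 12 lists of cell types, 0 passed limma's adjusted threshold, and 15 had an unadjusted p under 0.05, as did 697 of all 4582 genes tested. Over all genes tested, 3.16% were called higher and 0.196% lower. The epithelial and microglia lists had 0 genes tested, the neuron list 2 and the endothelial list 1. Genes expressed in only some libraries could not differ in all 7, so the fit cannot show that identity genes are level. Among the 94, the lowest adjusted p was that of S100b (-0.60, adjusted p = 0.085), a calcium-binding protein of glia. Sparc, a matrix protein, was at -0.20 (adjusted p = 0.15). Sparc was 0.819 times the level of other cells in MEF, 0.891 in PC-3F, 0.826 in PC-2F, 0.882 in PC, 0.801 in MEF-3F and 0.868 in MEF-2F, below 1 in all 6 libraries with Sparc UMIs. The median over the list was -0.08 for OPC genes, -0.16 for fibroblast genes and 0.17 for Schwann and neural crest genes.

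Inside the libraries, genes were compared where they had at least 30 UMIs in both classes together and 50 CPM in 1 of them, and called when the ratio passed 2-fold with an interval that left out 1. The summed OPC list had these ratios of cycling over other cells where OPC genes were expressed: 0.973 in pOPC (0.901 to 1.05), 0.931 in PC-3F (0.871 to 0.995), 0.829 in PC-2F (0.789 to 0.871), 0.909 in MEF-3F (0.830 to 0.996) and 1.23 in MEF-2F (1.07 to 1.41). Olig2, an OPC regulator that the viruses also carried, stood at 1689 against 1333 CPM in pOPC (ratio 1.27, 0.981 to 1.66), 396 against 319 in MEF-3F (1.24, 0.803 to 1.88), 176 against 206 in PC-2F (0.855, 0.653 to 1.12) and 94.0 against 84.8 in PC-3F (1.11, 0.621 to 1.95). Cycling cells of MEF-2F had 0 Olig2 UMIs, and those of the 3 other converted libraries held 94.0 to 396 CPM, against 1689 CPM in cycling primary OPCs. Pdgfra, the receptor for the OPC mitogen PDGF, was at 1404 against 1143 CPM in pOPC, 613 against 481 in PC-3F and 369 against 372 in PC-2F, and Cspg4, the proteoglycan NG2, at 362 against 423 CPM in pOPC, 952 against 974 in PC-3F and 606 against 744 in PC-2F. The intervals of those ratios held 1, except for Pdgfra in PC-3F (1.28, 1.02 to 1.59) and Cspg4 in PC-2F (0.814, 0.707 to 0.938).

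**Figure D4:**
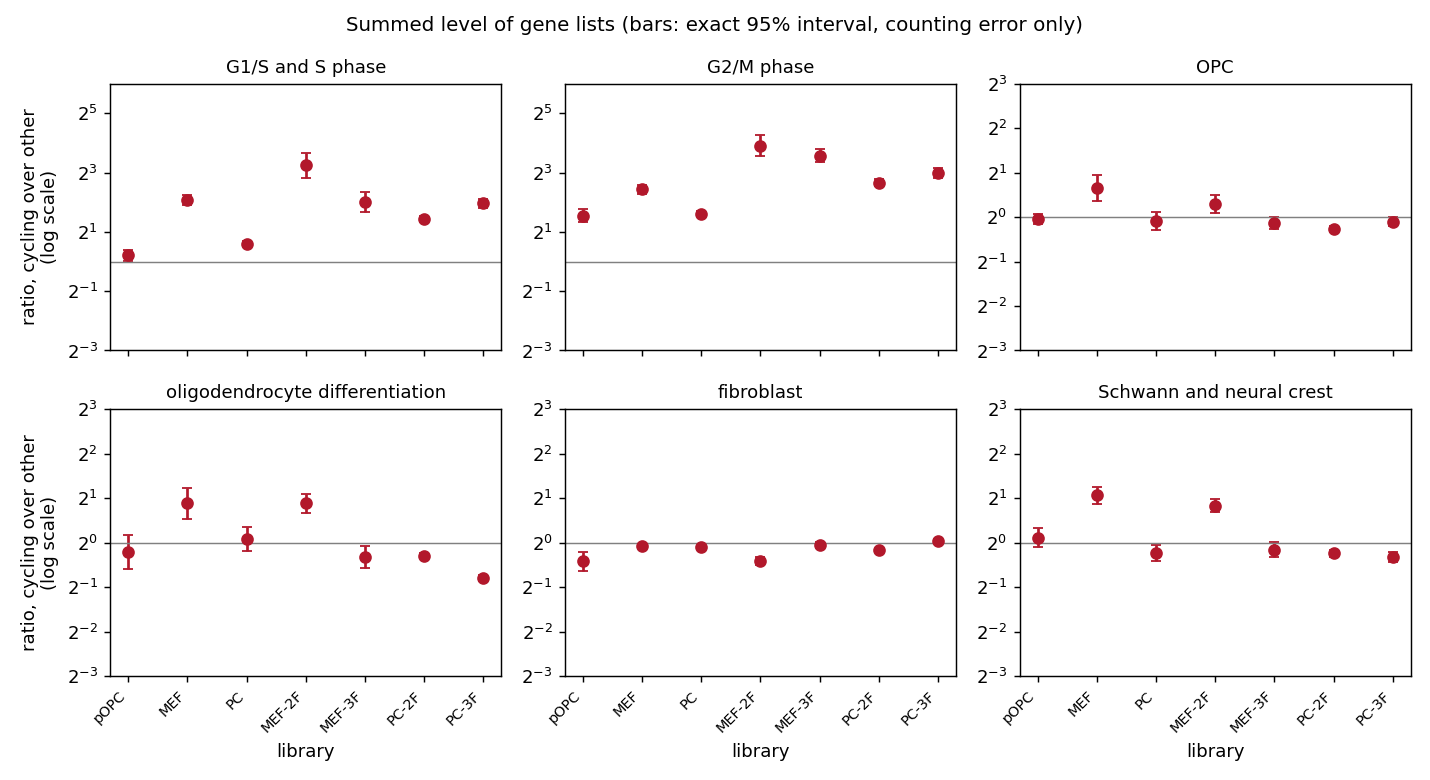
Ratio of cycling over other cells (log scale) of the summed level of 6 gene lists in each library, with exact 95% intervals. The phase lists lie above 1 in every library, and the OPC list lies between 0.829 and 1.57.

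In pOPC, 171 genes (3.63% of 4710) were called higher and 155 (3.29%) lower. The largest outside the cycle lists were Arhgap11a and Fam64a, at 299 and 221 CPM against 0 UMIs in other cells (at least 4.72-fold and 3.47-fold higher). Lower were Hes6, a bHLH factor of differentiating neural progenitors (71.8 against 339 CPM, 4.72-fold, 2.47 to 8.59), Pigx, Jmy and Hbp1, a repressor of G1 genes (38.5 against 169 CPM). Of the 19 measured OPC genes none was called. Other pOPC cells were 17 with 47261 UMIs in all, so that 3 UMIs there amount to 63.5 CPM and these values are coarse.

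In MEF, 319 genes (7.2% of 4431) were called higher and 255 (5.75%) lower. Among the genes called higher outside the cycle lists was Pbk, at 158 against 5.23 CPM (30.3-fold, 9.52 to 154). Lower in cycling cells were Col10a1, a cartilage collagen gene (0 against 72 UMIs, at least 8.99-fold), the chemokine gene Cxcl14 (23.3 against 227 CPM), Perp (28.0 against 173) and the matrix gene Dcn (41.9 against 206). Of 13 measured p53 targets 4 were lower, among them Trp53inp1 (32.6 against 162 CPM), Pmaip1 (74.5 against 286) and Mdm2 (182 against 410). The fibroblast list was nearly level (ratio 0.941, 0.919 to 0.964), with 1 of 27 genes lower, and Col1a1, the main chain of collagen I, stood at 4779 against 4775 CPM. Acta2, smooth muscle actin, was at 10826 against 8487 CPM, and the summed contractile list at a ratio of 1.25, which turned to 0.901 with thinned cells.

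A few cycling cells of the MEF library carried some genes of neural crest glia. Sox10, the master regulator of neural crest glia, was detected in 5 of 129 MEF cells, with 3, 3, 2, 1 and 1 UMIs, and these cells, singled out after their values were seen, were all cycling (5 of 5, interval 47.8 to 100%) against 23 of 124 cells without it (18.5%, 12.1 to 26.5). They held 31, 39, 20, 15 and 8 of the small heat shock protein Cryab, and 0 to 3 of the neuregulin receptor Erbb3. Detection of Cryab was not particular to them, at 65.3% of other MEF cells and 65.2% of cycling cells without Sox10. Its level was higher in the 5 cells, at 3373 CPM against 481.5 CPM in other cells and 430.5 CPM in cycling cells without Sox10. The receptor gene Ngfr had 11 UMIs in 3 of the 5 cells, 1 UMI in cycling cells without Sox10 and 0 in other MEF cells. Ednrb and Fabp7, also on the Schwann and neural crest list, had 0 UMIs in the 5 cells. The cartilage collagen gene Col2a1 had 44 and 21 UMIs in 2 of the 5. Col1a1 counts of the 5 cells were 11, 3, 8, 2 and 0, or 716 CPM, against 5531 CPM in the other 23 cycling cells. Their median depth was 6042 UMIs, against 4627 in the 124 other cells, and 0 of 267 PC cells had a Sox10 UMI. Thinned to 1000 UMIs, only 1 of the 5 kept a Sox10 UMI and it kept fewer than 2 markers. Without the 5 cells the Schwann and neural crest list was at a ratio of 1.12, in place of 2.09 (1.82 to 2.40) with them.

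In MEF-2F, 8 cells with 32439 UMIs were cycling, and 112 genes (6.91% of 1620) were called higher and 131 (8.09%) lower. The Schwann and neural crest list was 1.78-fold higher (1.6 to 1.97), with 4 of 12 measured genes called higher, among them the nerve growth factor receptor Ngfr (987 against 244 CPM, 4.05-fold), Erbb3 (894 against 306) and L1cam (308 against 125). This was not particular to that list. The oligodendrocyte differentiation list was at 8015 against 4358 CPM (ratio 1.84, 1.59 to 2.12), with 2 of 5 measured genes called higher. Erbb3 counts in the 8 cells were 6, 4, 5, 5, 3, 0, 4 and 2, so it was detected in 87.5% of cycling cells, against 44.8% of other cells. The depths of the 2 classes differed as well, with medians of 4142 and 2475 UMIs. The cell without Erbb3 carried 70 UMIs of the cartilage collagen gene Col2a1 and 8 of Acan.

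Olig2 had 0 UMIs in the 8 cycling MEF-2F cells and 15 UMIs in 13 of 67 other cells, while Sox10 was found in 4 of 8 and 9 of 67. At 32439 UMIs in cycling cells, 3 UMIs amount to 92.5 CPM, above the 77.8 CPM of other cells, so this difference was not detectable. Of 19 measured fibroblast genes 7 were called lower and 12 were not called; the 7 included Col6a2 (0 against 98 UMIs, at least 5.50-fold), Col6a1 (154 against 918 CPM) and Lum (123 against 529), and the cartilage collagen gene Col9a1 was at 432 against 2158 CPM. Igfbp2, which binds insulin-like growth factors, had 0 against 82 UMIs (at least 4.60-fold lower), and Spp1, osteopontin, stood at 308 against 1722 CPM. On the list of cyclins and brakes was Btg2, an antiproliferative p53 target, at 154 against 898 CPM.

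**Figure D5:**
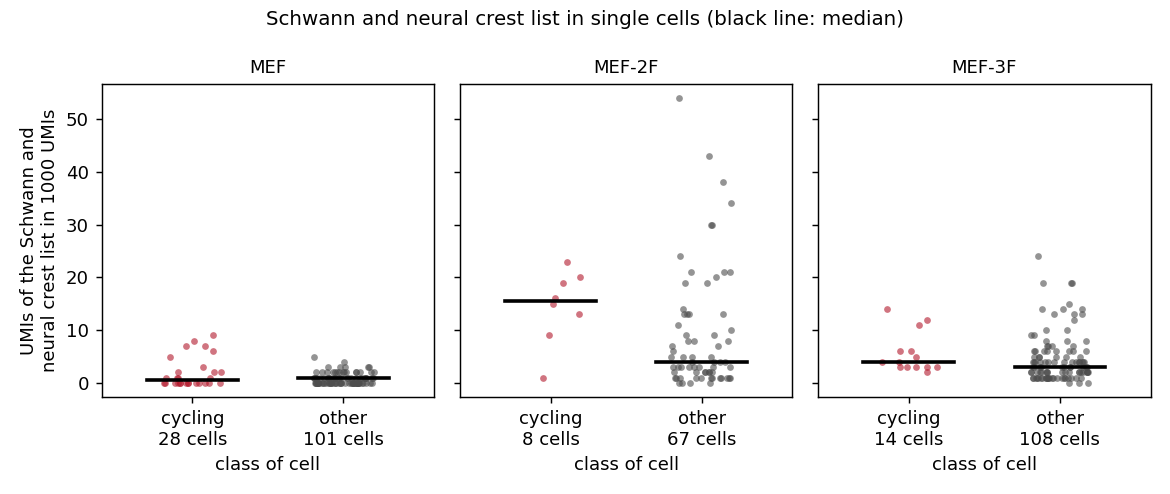
UMIs of the Schwann and neural crest list (vertical axis) in single cells of fibroblast origin thinned to 1000 UMIs, cycling in red and other in grey, with black lines at the medians. The ratios of the summed list over all UMIs were 0.893 in MEF-3F, 1.78 in MEF-2F and 2.09 in MEF, and most cycling MEF-2F cells lie above the median of the other cells.

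In MEF-3F, 128 genes (3.76% of 3404) were called higher and 133 (3.91%) lower. The Schwann list was level (0.893, 0.793 to 1.0), with 1 of 11 measured members called higher and 3 lower, and its ratio was 1.19 with thinned cells. Ngfr, for example, had 0 against 31 UMIs (at least 2.2-fold lower). Acta2 stood at 39.6 against 341 CPM, with 1 other cell holding 58 of its 121 UMIs. Spp1 was higher (396 against 84.6 CPM), in 14.3% of cycling and 8.33% of other cells, as were Tubb6 and Tm4sf1. Igfbp2 was again lower, at 0 against 44 UMIs, with Fibin (0 against 64), Vwa1 (0 against 39) and Litaf (1 against 64).

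Olig2 and Sox10 UMIs, in which transcripts of the virus and of the cell's own gene cannot be told apart, were found in both classes of MEF-3F cells. Olig2 was detected in 8 of 14 cycling cells and 47 of 108 others, Sox10 in 8 of 14 and 36 of 108, and Olig1 in 64.3% and 56.5%. These cycling cells were deeper, with a median of 4494 against 2286 UMIs. By level, Sox10 was at 145 against 265 CPM (ratio 0.549, 0.265 to 1.03). With cells thinned and called again, Sox10 was in 0 of 6 cycling and 21 of 116 other cells. Olig2 was then in 2 of 6 and 26 of 116. The highest Olig2 count of any MEF-3F cell, 11 UMIs, was in a cycling cell with 6 UMIs of Olig1. Col2a1 was found in 10 of 14 cycling and 87 of 108 other cells, at 2008 against 3174 CPM.

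In PC, 208 genes (4.4% of 4731) were called higher and 90 (1.9%) lower. Among the largest outside the lists were genes of chromosome cohesion and mitotic exit: Sgol2 (117 against 15.8 CPM, 7.45-fold, 3.83 to 16.2), G2e3 (7.05-fold) and Fbxo5, the inhibitor of the anaphase-promoting complex (6.23-fold). Lower were the genes of the secreted proteins Igfbp3 (76.7 against 310 CPM, 4.05-fold), the chemokine gene Ccl7 (64.2 against 236), Gpx3 (46.9 against 154) and Igfbp4 (152 against 447). The keratin genes Krt19 (332 against 303 CPM) and Krt20 (161 against 142) were near level, with ratios of 1.10 (0.898 to 1.34) and 1.14 (0.848 to 1.53). Thy1, a surface protein of fibroblasts, was 4.59-fold higher (57.9 against 12.6 CPM), in 13.9% of cycling and 3.14% of other cells. Of 21 measured fibroblast genes, this was the 1 called, and it was also the 1 of 22 called in PC-2F (75.5 against 15.3 CPM).

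In PC-2F, 319 genes (6.38% of 4999) were called higher and 115 (2.3%) lower. Lower were Ctla2a (3.28 against 163 CPM), the ferritin receptor Scara5 (29.6 against 160), Igfbp5 (44.3 against 222) and the basement membrane gene Nid1 (83.7 against 353). Few cells carried Igfbp5, 4.88% of cycling and 4.17% of others, and Ctla2a was in 8.33% of others. None of 17 measured OPC genes was called. Of 16 measured genes of oligodendrocyte differentiation, 1 was called, Cldn11, the tight junction protein of myelin, which was higher (126 against 59.4 CPM). The list as a whole was at 0.815 (0.787 to 0.844) of the level of other cells. Igfbp2 was 2.74-fold higher (139 against 50.9 CPM), while it was lower in MEF-2F and MEF-3F; the difference between libraries was not tested.

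In PC-3F, 323 genes (7.02% of 4598) were called higher and 215 (4.68%) lower. Cycling cells held less of the genes of oligodendrocyte differentiation: the list was at 8072 against 13996 CPM, 0.577 of the level of other cells (0.547 to 0.607), with 3 of 13 measured genes lower: the lipid carrier gene Apod (1078 against 2729 CPM), Enpp2, which encodes autotaxin (139 against 681), and Aspa (32.7 against 77.1). Trf, transferrin, at 4494 against 7242 CPM, was lower by less than 2-fold. Apod was detected in 45.7% of cycling and 69% of other cells although cycling cells were deeper. In cells thinned to 1000 UMIs, 8.62% of 58 cells with Apod were cycling (2.86 to 19.0) against 22.7% of 88 without it (14.5 to 32.9). These intervals overlapped. In PC-2F the direction was the other way, with 20.3% of 74 thinned cells with Apod cycling (11.8 to 31.2) and 17.3% of 104 without it (10.6 to 26.0).

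Further genes of PC-3F on the lower side were Ptgds, prostaglandin D synthase (24.5 against 290 CPM), Cpm and Mtss1, and, among fibroblast genes, Dcn (155 against 678), Lum, Col6a3 and S100a4. Of 23 measured fibroblast genes 4 were called lower, and the summed fibroblast list was level (ratio 1.03, 0.999 to 1.06). Astrocyte genes were at 0.537 (0.471 to 0.610) of the level of other cells, with Aldoc at 192 against 673 CPM. On the higher side, Bcan (282 against 136 CPM) and Ptprz1 (196 against 97.7), surface and matrix proteins of OPCs, were called, S100b (617 against 1264) was the 1 OPC-list gene called lower, and Olig1 stood at 200 against 134 CPM (ratio 1.5, 0.993 to 2.26). Col1a1 (989 against 632 CPM) and Col1a2 (5560 against 3228) were higher by less than 2-fold, and Cdkn1a was higher as given above.

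Detection of Olig2 or Sox10 and cycling were also set side by side in thinned cells. In MEF-2F, 2 of 14 cells with an Olig2 or Sox10 UMI were cycling (14.3%, 1.78 to 42.8) against 3 of 61 without (4.92%, 1.03 to 13.7). In MEF-3F the counts were 2 of 44 (4.55%) and 4 of 78 (5.13%), in PC-2F 9 of 57 (15.8%, 7.48 to 27.9) and 24 of 121 (19.8%, 13.1 to 28.1), and in PC-3F 7 of 31 (22.6%, 9.59 to 41.1) and 18 of 115 (15.7%, 9.55 to 23.6). The intervals overlapped in all 4 libraries, so no difference was detectable at this depth. Neither factor had a UMI in the 267 PC cells, and Olig2 had none in the 129 MEF cells.

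Lists of further cell types were measured for cells outside the design. The endothelial list was at 0 to 288 CPM in cycling and 0 to 260 CPM in other cells, highest in PC, and the microglia list at 0 to 387 and 5.14 to 239 CPM, highest in MEF, where C1qb was called higher (79.2 against 34.9 CPM). The neuron list reached 1815 CPM in cycling cells (pOPC), the astrocyte list 2325 CPM and the cartilage list 14798 CPM (both MEF-3F). The epithelial and mesothelial list was at 596 against 624 CPM in PC and at most 14 CPM in cycling cells of the 6 other libraries. Their part in the results was not tested.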

How the data were processed

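RNA from single cells was captured by ddSEQ, a droplet system, with a 3′ kit that uses UMIs. Per the submitters' processing notes the tools were bcl2fastq 2.19.1.403, STAR 2.5.3a, UMI-tools 0.5.3 and featureCounts 1.6.1 of Subread, with build mm10. The deposited tables do not hold UMI counts as such: other values, whole numbers that are the places of the counts when sorted as text within a block of barcodes, were deposited by the authors. Counts were decoded from these places for each block, an inference that the files do not state; 92.1 to 99.2% of UMIs per block had a code whose count was certain (probability at least 0.99).

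Cells with 1000 or more decoded UMIs were kept, and the levels rest on that decoding. Python 3.11.15 (numpy 2.4.6, scipy 1.17.1) gave shares, exact intervals (Clopper-Pearson; Poisson) and ratios. limma 3.58.1 in R 4.3.3 tested log2(CPM + 25) with the library as a block, for genes with a mean of at least 50 CPM, with Benjamini-Hochberg adjustment; its script was tested on simulated data. The pairs are 7 conditions, not replicates, and intervals cover counting error only. Genes named are the 5 markers, 15 fixed genes, the 12 largest each way in the fit, 8 outside the cycle lists, up to 4 each way per library at 100 CPM or more, and up to 4 per list and library; any other gene named was chosen after its values were seen. Mitochondrial, ribosomal protein and unnamed gene models were left out of these choices. The markers, gene lists and tests were chosen with earlier results of these data known. Alternatives were other pseudocounts, filters, depths and marker rules and leaving out each library; 4 of them were added after seeing the data. Results for some genes that the rule names are not reported here.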

Additional observations from a re-analysis of the deposited data

Results flagged for a closer look

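The fixed genes and those named per library or per list were searched for opposite directions, apart from genes not reported here. For 11 of these genes, which passed the 2-fold rule, cycling cells were higher than other cells in some libraries and lower in others. The remaining measured genes were not searched, so the share of such genes among all is not known. The differences between libraries were not tested. Values are log2 ratios of cycling over other cells with 0.5 UMI added to each class. Ngfr, a receptor of neural crest cells, stood at 2.02 in MEF-2F and -3.75 in MEF-3F. Igfbp2 was at 1.44 in PC-2F, -4.25 in MEF-3F and -4.79 in MEF-2F, and Igfbp4 at 1.11 in PC-3F, -1.55 in PC and -2.05 in MEF-2F. The matrix gene Dcn was at -2.11 in PC-3F, 1.07 in MEF-3F, -2.35 in MEF-2F and -2.22 in MEF, Spp1 at 2.23 in MEF-3F, -2.41 in MEF-2F and -1.26 in MEF, Col2a1 at 1.03 in MEF and -1.17 in PC-2F, and Vwa1 at 1.53 in MEF-2F and -4.07 in MEF-3F. Cells differed: of the 28 Dcn UMIs in cycling MEF-3F cells, 27 were in 1 cell with 2 markers. Without the 5 MEF cells with Sox10, Col2a1 stood at 237 CPM in cycling against 246 in other MEF cells. Hes6 was at -2.26 in pOPC and 1.80 in MEF-3F, Plk2 at -1.56 and 1.32 in the same libraries, Pigx at -2.32 in pOPC and 1.45 in PC-3F, and the neuronal tubulin gene Tubb3 at 1.76 in PC and -1.73 in PC-3F.

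Barcodes under 1000 UMIs were outside the comparisons. In pOPC, 10 of the 20 such barcodes (50%, exact interval 27.2 to 72.8) held UMIs of 2 or more markers, at a median of 804 UMIs, against 1 of 29 in PC and 2 of 47 in MEF-3F.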

How the results depend on the processing

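The share of cycling cells moved with the marker rule and the depth, and pOPC had the highest share under each of these rules. With 1 or more markers it was 75% in pOPC, 28.8% in PC-3F, 37.6% in PC-2F, 39.3% in PC, 14.8% in MEF-3F, 13.3% in MEF-2F and 20.2% in MEF. With 3 or more it was 21.6% in pOPC, 7.53% in PC-3F, 8.99% in PC-2F, 5.62% in PC, 1.64% in MEF-3F, 4% in MEF-2F and 2.33% in MEF, so that MEF-2F was then above MEF. Without thinning it was 85.3% in pOPC, 31.5% in PC-3F, 46.1% in PC-2F, 40.4% in PC, 11.5% in MEF-3F and 21.7% in MEF, and at 2000 UMIs 82.4% in pOPC, 25.4% in PC-3F, 26.5% in PC-2F and 29.1% in PC. By 4 other cycle genes it was 25% in pOPC, 6.85% in PC-3F, 10.7% in PC-2F, 9.36% in PC, 0% in MEF-2F and 3.10% in MEF. The first block of barcodes alone gave 5.56% in PC and 0% in MEF-3F.

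Of genes higher over the libraries, 32 were called at a mean of at least 200 CPM and 37 with thinned cells; leaving out a library gave 108 to 166. Of genes lower, 17 were called with log2(CPM + 100), 2 with no filter and 3 with cells of 3 or more markers as cycling; leaving out a library gave 3 to 19. Inside the libraries, the genes called at 4-fold, with thinned cells and with at least 100 UMIs numbered 126, 32 and 106 in pOPC, 137, 78 and 94 in PC-3F, 131, 72 and 124 in PC-2F, 60, 100 and 76 in PC, 74, 53 and 39 in MEF-3F, 87, 40 and 50 in MEF-2F, and 102, 61 and 80 in MEF.

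With thinned cells, list ratios were 1.49 (OPC, MEF-2F), 0.718 (OPC, PC-2F), 1.18 (oligodendrocyte differentiation, pOPC, from 0.858), 0.621 (the same, PC-3F), 0.895 (fibroblast, MEF-3F), 0.867 (fibroblast, PC-2F), 1.59 (Schwann, MEF-2F), 1.19 (Schwann, MEF-3F, from 0.893), 0.898 (Schwann, PC-3F), 0.901 (contractile, MEF, from 1.25) and 0.861 (contractile, PC); the 3 with a starting value turned direction, the first 2 from intervals that held 1. The S list was then at 2.29 in PC-2F, 16.8 in MEF-2F and 2.96 in MEF, and the G2/M list at 2.71 in PC and 13.9 in MEF-3F. Against cells with 0 markers, ratios were 0.686 (oligodendrocyte differentiation, PC-2F), 0.521 (the same, PC-3F), 0.853 (fibroblast, PC-2F) and 1.32 (contractile, MEF). Without the Sox10 cells, a choice made after seeing the data, the Schwann list in MEF was at 1.12. By Sox10 alone, 0 of 21 thinned MEF-3F cells with the factor were cycling (0%, 0 to 16.1). Without it 6 of 101 were (5.94%, 2.21 to 12.5), so the intervals overlapped. Over all UMIs the direction turned, with 8 of 44 MEF-3F cells with Sox10 cycling (18.2%) and 6 of 78 without (7.69%). Those with Sox10 were then deeper, with a median of 4060 against 2208 UMIs. Without thinning, the share with and without a factor was 47.1% and 43.9% in PC-2F, 40.2% and 20.3% in PC-3F, 14.1% and 7.84% in MEF-3F, and 15.4% and 8.16% in MEF-2F; cells with a factor were deeper in all 4. The causes were not tested. No paired analysis was possible because the conditions, 1 library each, share no second replicate number; the library block of the fit pairs only the 2 classes of cells within a library.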
